A study of Mus musculus with 8 samples.

Results

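Small intestinal organoids kept in coculture were compared with organoids grown alone, gene by gene and by functional group, across the transcriptome. Organoids are miniature epithelial cultures grown from crypts, the pits of the gut wall where stem cells divide. The comparison used every barcode of the cocultured library and every barcode of the control library that had at least 500 detected genes and at most 20% of its unique molecular identifiers (UMIs, counts of single captured RNA molecules) from the mitochondrial genome. This kept 540 of 818 control barcodes and 1037 of 1233 cocultured barcodes, 1577 cells in all, in a series that deposited 28486 barcodes of cells and tissue spots. Both cultures were of C57BL/6 mouse small intestine at passage 1, labelled CTRL and COCULTURE, and for each of them 16 wells were pooled and 100000 epithelial cells were sorted before droplet capture. What the organoids were cocultured with, and the age of the mice, is not stated in the labels. The series also held single-cell libraries of sorted intestinal tissue and spatial sections, which enter below only as a reference for levels.

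The epithelium of the small intestine renews itself from crypt stem cells, whose daughters divide, leave the crypt and mature into absorptive enterocytes or secretory cells. Enterocytes carry the brush border, with its digestive enzymes and nutrient carriers, and detoxify food compounds with cytochrome P450, glutathione transferase and glucuronosyltransferase enzymes. Damaged epithelium and organoids can instead enter a regenerative state, in which genes of the fetal gut, of the YAP pathway, of cell adhesion and of the ERBB growth factor system are active and stem cell genes are low.

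There was 1 library per condition, so no difference has a replicate check, the condition and the library cannot be told apart, and no p-value is given. The kept control cells held 43534069 UMIs, with a median of 73917 UMIs and 6743 genes per cell, and the kept cocultured cells 98104426 UMIs, with medians of 86430 UMIs and 6960 genes. The median mitochondrial share was 6.23% in control and 5.68% in cocultured cells, and the libraries shared 0 barcodes. The filter on mitochondrial share removed 211 control and 176 cocultured barcodes. Both libraries held epithelial RNA as labelled: all 10 enterocyte markers were detected in each, and the fibroblast, T cell and erythrocyte lists each summed to at most 13 UMIs. Lymphatic endothelial markers had 84 control and 347 cocultured UMIs, or 1.93 and 3.54 CPM (counts scaled to 1000000 UMIs per library). They came mostly from Lyve1 (59 and 229 UMIs) and Prox1 (23 and 114 UMIs), and Pdpn, Ccl21a, Mmrn1 and Reln were at 0 in both libraries. Blood endothelial markers summed to 15.5 CPM in control and 10.2 CPM in cocultured organoids, with Cdh5, Kdr, Emcn and Cldn5 at 22, 7, 30 and 34 UMIs in control and at 0 with coculture. The summed level of the macrophage list was 6.59 and 2.74 CPM, of smooth muscle or pericyte markers 0.551 and 0.744 CPM, and of B or plasma cell markers 1.84 and 1.61 CPM.

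Each gene was given 2 measures, the CPM of UMIs summed over the cells of a library and the mean over cells of each cell's CPM, so that deeply sequenced cells do not decide the result alone. A gene was eligible when it reached 2 CPM in the library where it was higher and when at least 10 cells were needed there to hold 50% of its UMIs. Of 32285 genes, 10612 reached 2 CPM and 10402 were eligible. Because a gene can pass through the library where it is high, counts and medians below describe the members that passed and not whole gene lists. Over eligible genes, the log2 ratio (cocultured over control) had a median of -0.09 by summed CPM and -0.05 by mean CPM, and the 5th and 95th percentiles by summed CPM were -0.65 and 0.37. By both measures, 3444 genes (33.1%) were above 0 and 5221 (50.2%) below 0.

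At least 2-fold higher with coculture by both measures were 39 genes, 0.375% of the eligible ones, and at least 2-fold lower were 168 genes, 1.62%. At 1.5-fold the counts were 161 (1.55%) higher and 558 (5.36%) lower. Among the higher genes were enzymes and carriers of mature enterocytes. Among the lower genes were laminins, integrins, keratins, annexins, ERBB receptors and ligands, and genes of fetal and regenerating epithelium. On at least 1 of the 45 functional lists were 11 of the higher and 55 of the lower genes. The share of all eligible genes on these lists was not computed, so these counts are not read as an excess. UMIs of the higher genes were spread over 17 to 116 cocultured cells for 50% of the UMIs (median 57), and those of the lower genes over 10 to 77 control cells (median 25.5). The rule on few cells left out 210 genes, of which 43 were past 2-fold higher and 78 past 2-fold lower by both measures. They included the regenerative marker Clu, whose 4849 control UMIs were held to 50% by 4 cells and which had 56 cocultured UMIs, the annexin Anxa1 with 3075 and 239 UMIs, and the enteroendocrine granule gene Chga with 332 and 9545 UMIs.

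**Figure D1:**
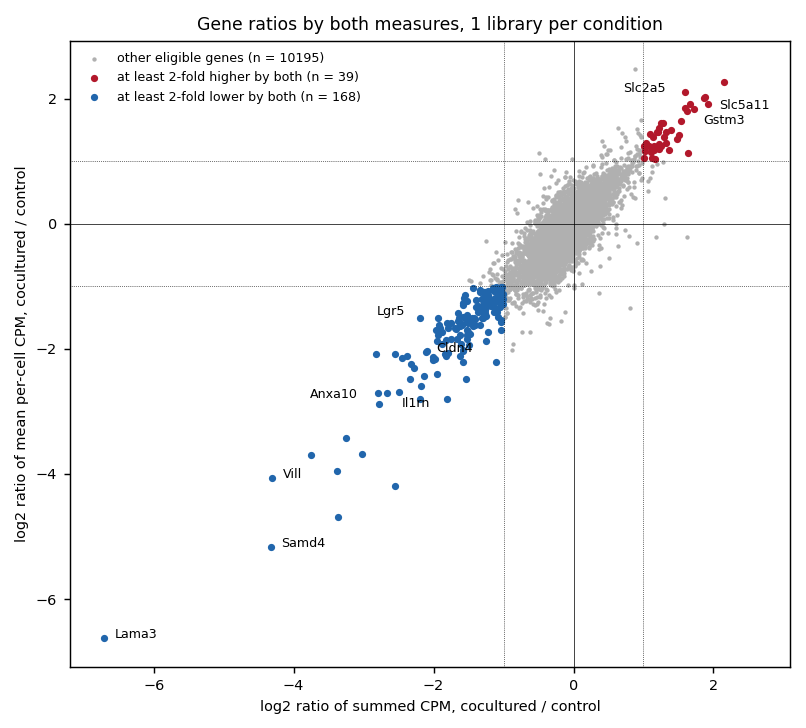
Log2 ratio of cocultured to control for 10402 eligible genes, by summed CPM (x axis) and by the mean of per-cell CPM (y axis), with 1 library per condition and dotted lines at 2-fold. The 168 lower genes reach farther from 0 than the 39 higher genes, down to Lama3 at -6.71, while most genes lie near the median of -0.09.

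Enzymes that detoxify foreign compounds had the highest median of the 45 lists, which were chosen with earlier results of these data known. Of 28 eligible xenobiotic metabolism genes, 25 were above 0 and 2 below 0 by both measures, 11 were at least 1.5-fold higher, and 5 at least 2-fold higher (Gstm1, Gstm3, Cyp2b10, Ces1f and Cyp4f14), with a median log2 ratio of 0.51 by summed and 0.58 by mean CPM. Gstm1 (ENSMUSG00000058135), a mu-class glutathione transferase that attaches glutathione to reactive compounds, had 5277 control UMIs (121 CPM) and 36599 cocultured UMIs (373 CPM). Its log2 ratio was 1.62 (95% counting interval 1.58 to 1.66) by summed and 1.80 by mean CPM. Its neighbour Gstm3 (ENSMUSG00000004038) had 4800 and 35836 UMIs (110 and 365 CPM), a log2 ratio of 1.73 (1.68 to 1.77). Cyp2b10, a cytochrome P450 known as a target of the nuclear receptor CAR, had 1477 and 8310 UMIs, a log2 ratio of 1.32 (1.24 to 1.40). Ces1f, a carboxylesterase that cleaves ester drugs and lipids, had 386 and 2062 UMIs (1.25 by summed and 1.62 by mean CPM). Against the direction of the list, the P450 Cyp3a13 was at -0.96 and P450 reductase Por at -0.16. Left out because few cells held them were 2 more P450 genes, Cyp2c29 (362 and 332 UMIs, -1.30 by summed and -1.35 by mean CPM) and Cyp3a11 (499 and 507 UMIs, -1.15 and -1.71). The count of 5 became 8 among cells with 2000 or more genes and at most 10% mitochondrial UMIs, and 8 without the top 5 cells of each gene. All such intervals cover counting error only.

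Across the transcriptome, the 10 highest named genes by the weaker of both ratios were Slc5a11, Maob, Ugt2b5, Gstm3, Ces1d, Gstm1, Fmo1, Slc2a5, Nat8 and Anpep. Maob, the monoamine oxidase that breaks down amines, had 95 control and 789 cocultured UMIs (2.18 and 8.04 CPM), a log2 ratio of 1.88 (1.57 to 2.20). Slc5a11, a sodium-coupled inositol carrier, had 46 and 394 UMIs (1.06 and 4.02 CPM), a log2 ratio of 1.93 (1.48 to 2.40). Ugt2b5, which adds glucuronic acid to steroids and drugs, had 26 and 213 UMIs (1.86, interval 1.27 to 2.51), and Fmo1, a flavin monooxygenase, 37 and 252 UMIs (1.60, interval 1.09 to 2.13). These 4 genes were scarce in control, where 5 to 10 cells held 50% of their UMIs, whereas 21 to 55 cocultured cells held 50%. Nat8, which acetylates cysteine conjugates on the way to mercapturic acids, the end products of glutathione conjugation, had 194 and 1263 UMIs (4.46 and 12.9 CPM), a log2 ratio of 1.53.

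**Figure D2:**
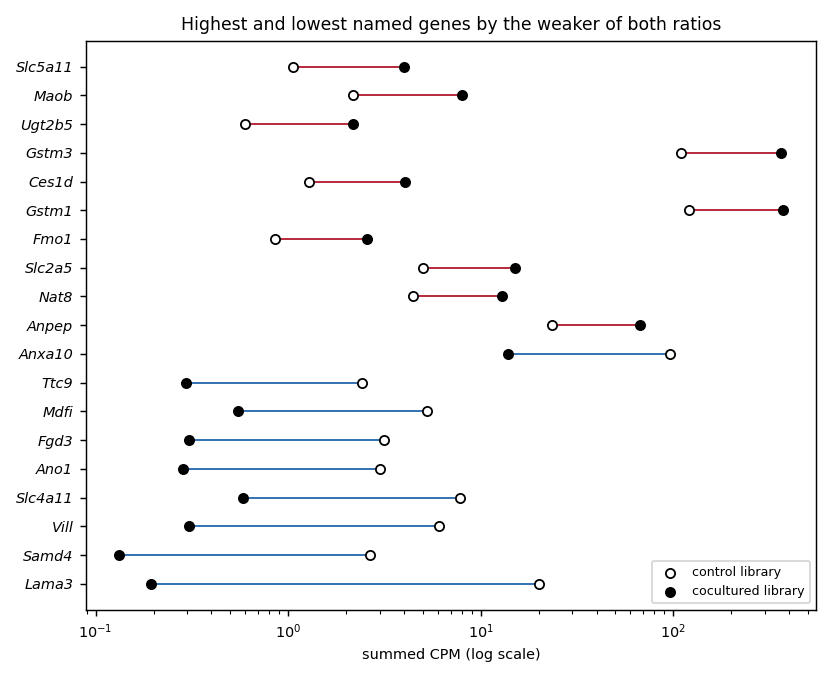
Summed CPM (log scale) in the control library (open points) and the cocultured library (filled points) for the highest and lowest named genes, with red lines for higher and blue lines for lower with coculture. Gstm1 and Gstm3 move from 121 and 110 CPM to 373 and 365 CPM, and Lama3 moves from 20.2 to 0.194 CPM.

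Brush border genes were also higher in part. Of 31 eligible brush border hydrolases and nutrient transporters, 24 were above 0 and 5 below 0 by both measures, 8 were at least 1.5-fold higher, 3 at least 2-fold higher and 1 at least 2-fold lower, with a median of 0.37 by summed and 0.46 by mean CPM. Anpep, the aminopeptidase N that trims peptides at the cell surface, had 1027 and 6586 UMIs (23.6 and 67.1 CPM), a log2 ratio of 1.51 (1.41 to 1.61). Slc2a5, the fructose carrier, had 218 and 1481 UMIs (5.01 and 15.1 CPM), at 1.59 by summed and 2.10 by mean CPM, and Slc2a2, the basolateral glucose carrier, had 1134 and 5189 UMIs (1.02 and 1.17). The sodium-glucose carrier Slc5a1 was at 0.30 and sucrase-isomaltase Sis at 0.84. In the opposite direction stood Slc10a2, the ileal bile acid carrier, with 612 control and 369 cocultured UMIs and log2 ratios of -1.90 and -1.67. Villin (Vil1) was at -0.06 and alkaline phosphatase (Alpi) at 0.05. The count of 3 became 8 among cells with 2000 or more genes and at most 10% mitochondrial UMIs, and 7 without the top 5 cells of each gene. Over 16 alternative settings the call was kept in 16 for Anpep, 15 for Slc2a5, 13 for Slc2a2 and 12 for Slc10a2.

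Genes of fat absorption lay on both sides of 0. Of 23 eligible members 15 were above 0 and 7 below 0 by both measures, none passed 2-fold, and the median was 0.22 by summed and 0.10 by mean CPM. The fatty acid binding proteins Fabp1 and Fabp2 were at 0.77 and 0.89. From the list of lipid synthesis, the acyltransferases Mogat2 and Dgat1 were at 0.93 and 0.55. Apob, the structural protein of chylomicrons, was at -0.71, Apoa4 at -0.45 and the lipid droplet gene Cidec at -0.46, whereas Apoa1 was at 0.38. Lpin2, a phosphatidate phosphatase of triglyceride synthesis, was lower, with 2500 and 2559 UMIs, or 57.4 and 26.1 CPM. The summed level of the 10 enterocyte markers was 11416 CPM in control and 16065 CPM in cocultured organoids, with 8 markers above 0, 1 below 0 and a median of 0.44. A larger share of enterocytes and more RNA of these genes per enterocyte cannot be told apart from summed levels, and the part of the enterocyte markers in the higher gene groups was not tested.

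Respiration genes showed a small shift that nearly every member shared. All 76 nuclear genes of oxidative phosphorylation were eligible, and 75 were above 0 and 1 below 0 by both measures, from Sdha at -0.02 to Ndufs7 at 0.48, with a median of 0.26 by summed and 0.32 by mean CPM. None passed 1.5-fold, and their summed level was 45809 CPM in control and 54646 CPM with coculture. Of 34 genes of the citric acid cycle and mitochondrial fat oxidation, 31 were above 0 and 3 below 0 (median 0.20), led by Acot1 at 0.57 and Mdh2, the mitochondrial malate dehydrogenase, at 0.55 with 1098 and 1606 CPM. The 13 transcripts of the mitochondrial genome went the other way, with a median of -0.21 and all 13 below 0. Cytosolic ribosomal protein genes (65 of 79 above 0, median 0.12) and proteasome genes (25 of 31 above 0, median 0.11) were slightly above the median gene. Lower in the cocultured library were 3 RNAs often read as signs of nuclear or ribosomal RNA in a droplet, Malat1 (5764 and 3088 CPM), Gm42418 (14772 and 8770 CPM) and AY036118 (431 and 150 CPM), and their part in these shifts was not tested.

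The lowest eligible genes included laminin, actin-binding and ion channel genes. Lama3 (ENSMUSG00000024421), the alpha chain of laminin 332, which anchors epithelial cells to the basement membrane, had 880 control UMIs (20.2 CPM), held to 50% by 18 cells, and 19 cocultured UMIs (0.194 CPM). Its log2 ratio was -6.71 (-7.44 to -6.05) by summed and -6.62 by mean CPM. Lamb3, the beta chain of the same laminin, was at -0.95. Samd4, an RNA-binding translational repressor, had 116 and 13 UMIs (-4.33), and Vill, a villin-like actin binding protein, 265 and 30 UMIs (-4.32). Slc4a11, a borate transporter family member, had 340 and 57 UMIs (-3.75), Ano1, a calcium-activated chloride channel, 130 and 28 UMIs (-3.39), and Fgd3, an activator of CDC42, 137 and 30 UMIs (-3.36). Mdfi, an inhibitor of myogenic transcription factors, had 229 and 54 UMIs (-3.26), and Ttc9 had 105 and 29 UMIs (-3.03). The gastric annexin Anxa10 had 4186 and 1363 UMIs (96.2 and 13.9 CPM), a log2 ratio of -2.79 (-2.88 to -2.70). When 20 cells had to hold 50% of the UMIs, Lama3, Samd4, Vill, Slc4a11, Ano1, Fgd3, Mdfi, Ttc9 and Anxa10 were no longer eligible, and after thinning to 10000 UMIs Samd4, Vill, Ano1, Fgd3 and Ttc9 were not called.

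Of 26 fetal and regenerative epithelial genes, 8 were eligible, 9 stayed under 2 CPM and 9 were held by few cells. Of the 8, 7 were at least 2-fold lower by both measures, among them Anxa10, Krt23, Cldn4, Anxa3 and Ly6a, none was above 0, and the median was -2.02 by summed and -1.87 by mean CPM. Cldn4, a tight junction claudin, had 12697 and 6614 UMIs (292 and 67.4 CPM), a log2 ratio of -2.11 (-2.16 to -2.07), and 28 cells held 50% of its UMIs in each library. Krt23, an epithelial keratin, had 4642 and 2073 UMIs (107 and 21.1 CPM), a log2 ratio of -2.34. Ly6a, the surface protein Sca-1 that marks regenerating crypts, had 3887 and 3076 UMIs (-1.51), held to 50% by 11 cells in each library. With a minimum of 20 such cells, 3 of the fetal and regenerative genes were past 2-fold lower. Annexins, S100 calcium-binding proteins and galectins followed in part, with 5 of 17 eligible members at least 2-fold lower and a median of -0.35 by summed and -0.52 by mean CPM. S100a6 had 82696 and 65315 UMIs (1900 and 666 CPM), a log2 ratio of -1.51, S100a11 was at -1.44 (826 and 303 CPM), Anxa5 at -1.58 and Lgals3 at -1.44. Near or above 0 in the same list stood Anxa11 at 0.00, Lgals4 at 0.23 and Lgals2 at 0.51. Lgals1 was at 0.81 by summed and -1.35 by mean CPM.

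Promoters of 5 genes past 2-fold, chosen after the matches were seen, are shown as examples that hold a searched motif, in the orientation of the gene and ending at the base before its RefSeq start (build GRCm38.p6). The motifs TGANTCA of AP-1 and CAAAGTC of the enterocyte factor HNF4A, each read on both strands, are in capitals. These motifs too were chosen after the matches were seen, from 6 searched, and the others were GGAATG of TEAD factors, TGACGTC of cyclic AMP response elements, TTGGCGC of E2F and ACGTG of hypoxia response elements. AP-1 motifs were marked in Cldn4 (chr5:134946935-134947184, minus strand), in Emp1 (chr6:135362681-135362930, plus strand), a membrane protein gene with 4640 control and 2610 cocultured UMIs and a log2 ratio of -2.00, and in S100a11 (chr3:93520346-93520495, plus strand). HNF4A motifs were marked in Gstm3 (chr3:107969175-107969424, minus strand) and in Cyp2c68 (chr19:39741102-39741201, minus strand), a P450 gene with 456 and 2074 UMIs and a log2 ratio of 1.01.
Cldn4: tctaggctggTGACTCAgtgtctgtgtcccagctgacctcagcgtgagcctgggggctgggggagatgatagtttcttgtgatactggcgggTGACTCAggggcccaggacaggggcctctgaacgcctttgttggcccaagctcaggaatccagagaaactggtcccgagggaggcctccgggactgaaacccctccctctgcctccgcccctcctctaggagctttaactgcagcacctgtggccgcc
Emp1: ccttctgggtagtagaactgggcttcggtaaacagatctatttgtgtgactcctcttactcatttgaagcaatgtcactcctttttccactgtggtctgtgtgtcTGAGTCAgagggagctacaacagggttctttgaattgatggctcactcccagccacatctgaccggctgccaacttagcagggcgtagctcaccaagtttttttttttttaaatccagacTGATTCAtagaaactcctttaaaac
S100a11: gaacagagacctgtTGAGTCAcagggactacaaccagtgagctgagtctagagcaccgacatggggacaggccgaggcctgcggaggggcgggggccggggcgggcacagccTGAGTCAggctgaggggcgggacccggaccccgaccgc
Gstm3: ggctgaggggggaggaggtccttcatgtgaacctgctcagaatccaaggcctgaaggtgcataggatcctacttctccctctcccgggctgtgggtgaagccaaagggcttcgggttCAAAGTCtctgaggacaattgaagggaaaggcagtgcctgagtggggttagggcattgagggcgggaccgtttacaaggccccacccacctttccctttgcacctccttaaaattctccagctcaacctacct
Cyp2c68: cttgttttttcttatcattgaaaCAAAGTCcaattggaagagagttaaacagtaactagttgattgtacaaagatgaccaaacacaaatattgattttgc
The AP-1 matches began 240 and 158 bases before the start of Cldn4, 145 and 25 before that of Emp1 and 136 and 38 before that of S100a11. The HNF4A matches began 133 bases before the start of Gstm3 and 77 before that of Cyp2c68. Among all 32851 promoters in the table, 7.81% held the AP-1 motif and 4.44% the HNF4A motif. These promoters run from 250 bases before to 50 after a start and are longer than the stretches shown. A promoter was found for 31 of the 39 higher and 131 of the 168 lower genes. Both are under 80% of their sets (79.5% and 78%), so a comparison of motif shares between the sets was void.

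Genes that hold epithelial cells to the matrix and to each other lay mostly below 0, though most did not pass 2-fold. Of all eligible genes, 50.2% were below 0 and 1.62% at least 2-fold lower by both measures. Of 18 eligible integrin, laminin and matrix adhesion genes all 18 were below 0 and 7 at least 2-fold lower (Lama3, Itgb6, Lama5, Mmp15, Itgav, Lamc1 and Itga2), with a median of -0.75 by summed and -0.86 by mean CPM. Itgb6 and Itgav, chains of the integrin that activates latent TGF-beta, had 1450 and 817 control UMIs and 1010 and 639 cocultured UMIs, log2 ratios of -1.69 and -1.53. Chains of the hemidesmosome integrin, Itga6 and Itgb4, were at -0.67 and -0.68, and Itgb1, the common beta chain of collagen and laminin receptors, at -0.53. Of 30 keratin and cell junction genes 29 were below 0 and 1 above 0, with a median of -0.57, and their summed level was 14858 CPM in control and 10233 CPM with coculture. Past 2-fold were Krt18, the keratin partner of Krt8, with 64310 and 60268 UMIs (1477 and 614 CPM, -1.27), Krt20, a keratin of mature surface cells (-1.29), and the claudin Cldn23 (-1.62). E-cadherin (Cdh1) was at -0.88, desmoplakin (Dsp) at -0.93 and beta-catenin (Ctnnb1) at -0.65, and only Cldn15, a claudin of cation pores, stood above 0, at 0.48. Of 30 actin cytoskeleton genes 24 were below 0, and 3 were at least 2-fold lower, among them the filamin Flna (-1.33) and the LIM domain protein gene Pdlim7 (-1.59), with a median of -0.35. Cytoplasmic actin genes diverged, with Actb at -0.32 and Actg1 at 0.14.

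Ligands, receptors and feedback genes of the ERBB pathway, which drives crypt growth through ERK kinase, lay mostly below 0, though most did not pass 2-fold. Of 22 eligible members 21 were below 0 and 6 at least 2-fold lower by both measures, none was above 0 by both, and the median was -0.66 by summed and -0.72 by mean CPM. The EGF receptor Egfr had 1282 and 857 UMIs (29.4 and 8.74 CPM), a log2 ratio of -1.75 (-1.88 to -1.63), held to 50% by 31 control and 113 cocultured cells. Erbb3 was at -0.68 and Erbb2 at -0.35. Among ligands, betacellulin (Btc) had 57.9 and 25.2 CPM (-1.20) and amphiregulin (Areg) had 23046 and 24808 UMIs (-1.07), and Tgfa was at -0.79 and Hbegf at -0.42. The ephrin receptors Epha4 (-1.83) and Epha2 (-1.01) and the ERK-induced factor Fosl1 (-1.52) also passed 2-fold. Fosl1, with 189 control UMIs, kept its call in 12 of 16 alternative settings and Epha4 in 15. The ERK feedback genes Dusp6, Spry2 and Etv4 were at -0.65, -0.40 and -0.26. Immediate-early genes, which ERK and stress kinases induce within minutes, had 18 of 22 below 0 and a median of -0.41. Among them Fosb was at -1.58 (42.1 and 14.1 CPM), Fos at -0.50, Jun at -0.51 and Egr1 at 0.04.

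YAP and TEAD target genes had 11 of 22 members eligible, of which 4 were at least 2-fold lower, with a median of -0.83 by summed and -0.94 by mean CPM. They were Amotl1 (143 and 55 UMIs), Ajuba (194 and 126), Lats2 (131 and 121) and Crim1 (654 and 672), of which the first 3 are regulators of the pathway itself. Yap1 was at -0.30 and Ccn1, a classical YAP target, at -0.41, and Nuak2 at 0.28. At a minimum of 5 CPM in place of 2 the median was -0.42 and 1 member, Crim1, was past 2-fold lower. The count of 4 also became 1 after thinning to 10000 UMIs, and 2 with no filter on cells or when 20 cells had to hold 50% of the UMIs.

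Stem cell and Wnt target genes lay below 0 by summed CPM. Of 27 eligible members 24 were below 0 and none above 0 by both measures, 3 were at least 2-fold lower, and the median was -0.59 by summed and -0.44 by mean CPM. Lgr5, the R-spondin receptor of crypt stem cells, had 279 and 137 UMIs (6.41 and 1.40 CPM), log2 ratios of -2.20 and -1.51, and 19 control and 11 cocultured cells held 50% of its UMIs. Olfm4 had 157 and 69.4 CPM (-1.18), and Zfp703, a Wnt-linked zinc finger gene, 49.4 and 23.6 CPM (-1.07). The crypt receptors Ephb3 (-1.07 and -0.99) and Cd44 (-1.03 and -0.93) missed 2-fold by mean CPM, Sox9 was at -0.70 and Myc at -0.04. Notch pathway genes had 11 of 12 below 0 and none past 2-fold, with a median of -0.37. Within the BMP and TGF-beta list (median -0.35), the repressor Skil was at -1.24, whereas the BMP targets Id2 and Id3 were at 0.61 and 0.60. Division genes stood near the median gene: 21 of 35 S phase genes were below 0 with a median of -0.17, and 20 of 35 mitosis genes above 0 with a median of 0.06, from Mki67 at -0.34 to Cdc20 at 0.43. No gene of either cell cycle list was past 2-fold. The 3 lower stem cell and Wnt genes became 6 after thinning to 10000 UMIs and 1 when 20 cells had to hold 50% of the UMIs.

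Defence and inflammatory genes divided. Of 31 antimicrobial and epithelial defence genes, 11 were eligible, 14 stayed under 2 CPM and 6 were held by few cells, among them Reg3b and Lcn2. Of the 11, 3 were above 0 and 6 below 0 by both measures. Past 2-fold were 3 lower and none higher, and the median was -0.18. The hydrogen peroxide producing oxidase Duox2 and its maturation factor Duoxa2 had 798 and 835 control UMIs and 394 and 489 cocultured UMIs, log2 ratios of -2.19 and -1.94, and Nox1 was at -1.03. Duox2 kept its call in 16 of 16 alternative settings, and Duoxa2 and Nox1 in 13 each. In the NF-kappaB and chemokine list (16 eligible of 30, median -0.33), the IL-1 receptor antagonist Il1rn had 2152 and 764 UMIs (49.4 and 7.79 CPM, -2.67) and Cxcl16 2728 and 2158 UMIs (-1.51). Higher in the same list were Il18, an epithelial cytokine, with 1351 and 7263 UMIs (31.0 and 74.0 CPM, 1.25), and Ccl25, a gut homing chemokine, at 0.94. Interferon response genes (median -0.01) and antigen presentation genes (median -0.07) had no member past 2-fold. Retinoid genes split. Of 19 listed, 8 were eligible, with 4 above 0 and 3 below 0 by both measures and a median of 0.26. The retinol and retinal converting enzymes Rdh10 (-1.18) and Dhrs9 (-1.14) were lower, as was Bco1 (-1.12), and the retinol binding protein Rbp2 was at 0.51. Isx, a retinoid-induced homeobox factor known to repress Bco1, had 210 and 1471 UMIs (4.82 and 15.0 CPM), log2 ratios of 1.64 and 1.13. The call of Isx was kept in 16 of 16 alternative settings and that of Bco1 in 12. In the reelin list the adaptor Dab1 had 152 and 702 UMIs (1.04 and 1.28), the receptors Vldlr and Lrp8 were at -0.21 and -0.42, and Reln itself was at 0 in both libraries.

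Stress and housekeeping groups stayed close to the median gene. Of the 45 functional lists, 24 held no eligible member past 2-fold in either direction, 19 held at least 1 lower and 5 at least 1 higher. Among all eligible genes 1.62% were past 2-fold lower and 0.375% higher, and the lists differ in size. Medians were -0.16 for p53 targets, -0.17 for the integrated stress response, -0.06 for endoplasmic reticulum folding, 0.01 for cytosolic heat shock, -0.12 for glycolysis and hypoxia, 0.02 for cholesterol synthesis and 0.05 for antioxidant genes. The medians of endoplasmic reticulum folding, heat shock, interferon response and antigen presentation genes changed sign in 2, 1, 7 and 2 of 15 alternative settings. Single genes stood apart from their lists, among them the inducible heat shock genes Hspa1a (-1.52) and Hspa1b (-1.13), heme oxygenase Hmox1 (-1.41, with 20.7 and 7.80 CPM) and the stress factor Jdp2 (-1.64). The metallothioneins Mt1 and Mt2 were at 0.71 and 0.56. Chromatin modifier genes had 26 of 30 below 0 (median -0.30).

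**Figure D3:**
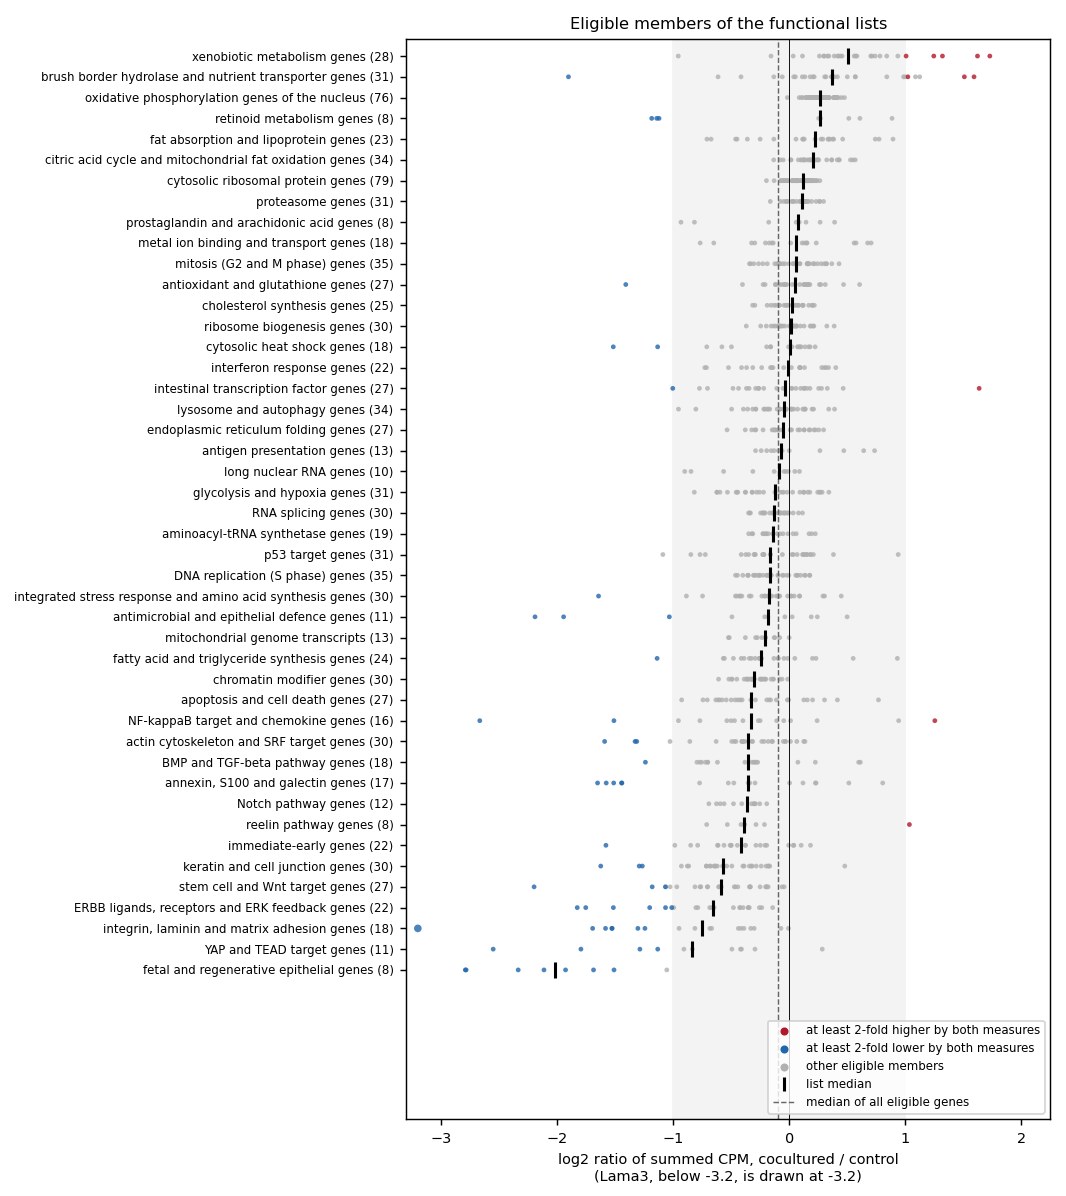
Log2 ratio of summed CPM for each eligible member (points) of the 45 functional lists, with list medians (ticks), the number of eligible members in brackets, the band of less than 2-fold in grey and the median of all eligible genes as a dashed line. Xenobiotic genes stand highest with a median of 0.51 and fetal and regenerative genes lowest with -2.02, while oxidative phosphorylation genes lie between -0.02 and 0.48. The lists were chosen with earlier results of these data known.

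Whole gene families were then followed, a choice made after single members had been seen. All 7 mu-class glutathione transferases were above 0 and 5 at least 2-fold higher (Gstm1, Gstm2, Gstm3, Gstm4 and Gstm6), and these 5 lie side by side at chr3:107938847-108045179. Gstm7 was at 0.95 and Gstm5 at 0.06, and 6 of the 7 were above 0 among cells with 2000 or more genes and at most 10% mitochondrial UMIs. The other glutathione transferases, 3 of the alpha class and 11 of further classes, were all above 0 but none passed 2-fold, with medians of 0.42 and 0.22. Of 5 eligible Ugt2 glucuronosyltransferases all 5 were above 0 and 3 passed 2-fold, neighbours at chr5:87065927-87337195. Both eligible Ces1 esterases, both sulfate and dicarboxylate carriers Slc13a1 (1.19) and Slc13a2 (1.22), and 2 of 4 Nat8 acetyltransferases were also past 2-fold higher. Members of the Slc5, Slc2 and Cyp3a families lay on both sides of 0. Of 5 eligible members of the Slc5 carrier family, 2 were above 0 (Slc5a11 and Slc5a1) and 3 below 0, with Slc5a3 at -0.80, Slc5a6 at -0.39 and Slc5a9 at -0.06. Among 4 eligible Slc2 carriers, Slc2a5 and Slc2a2 were past 2-fold higher and Slc2a1, the glucose carrier of most cells, was at -0.60, and the 2 eligible Cyp3a genes, Cyp3a13 and Cyp3a25, were at -0.96 and 0.26. Copies in the Gstm, Ugt2, Ces1, Nat8 and Hspa1 families can be close in sequence, which was not measured here, so single values are uncertain where reads fit more than 1 copy.

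In the lower direction, the membrane proteins Emp1 and Emp3 were at -2.00 and -1.81 and Emp2 at -0.76. Of 7 claudins Cldn4 and Cldn23 passed 2-fold and Cldn2, Cldn3, Cldn7 and Cldn12 lay between -0.49 and -0.17. The surface genes Gml, Gml2, Ly6a and Lynx1, neighbours at chr15:74747856-74998031, had log2 ratios between -1.53 and -1.33. They were 4 of 7 eligible Ly6 and Gml family members, and the other 3 were Ly6e at -0.28, Lypd8 at 0.24 and Ly6g2 at 0.31. Among cornified envelope genes of the Sprr2 cluster, 3 neighbours at chr3:92250647-92318085 were past 2-fold lower, Sprr2a3 at -1.22, Sprr2a2 at -1.21 and Sprr2b at -1.17. Members of this cluster that were not past 2-fold were not tallied.

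**Figure D4:**
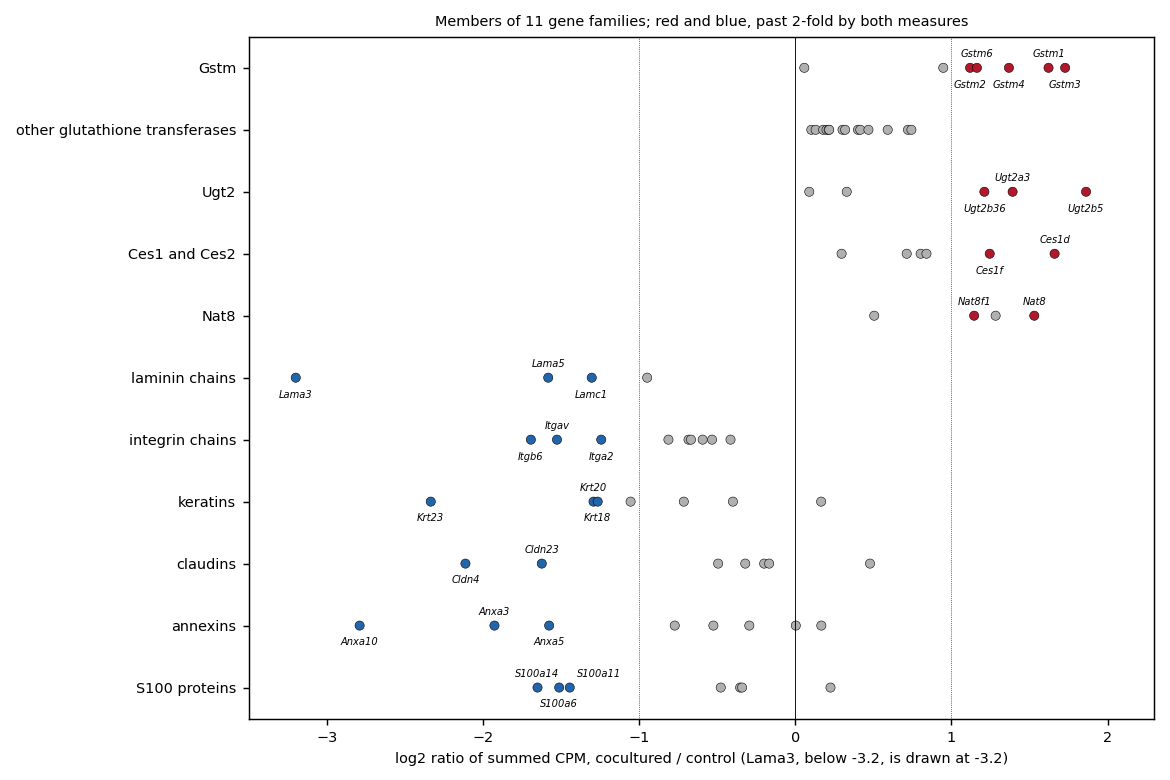
Log2 ratio of summed CPM for eligible members of 11 gene families that are reported here, with red and blue points past 2-fold by both measures and dotted lines at 2-fold. Glutathione transferases, Ugt2, Ces and Nat8 members all lie above 0, the laminin and integrin chains all lie below 0, and within claudins, annexins and S100 proteins the members spread from below -1.4 to above 0.

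The spread over cells was read after thinning each cell to 10000 UMIs, which left out 88 control and 109 cocultured cells with fewer. The summed UMIs of the 168 lower genes had a median of 54 per control cell and 32 per cocultured cell (68.4 and 34.5 without thinning, scaled to 10000 UMIs), and 90th percentiles of 496 and 106. Those of the 39 higher genes had medians of 2 and 6 (2.10 and 6.12 without thinning) and 90th percentiles of 21 and 64. At the 10th percentile the lower genes had 26 and 17 UMIs. These genes were chosen on sums and means of the same counts, so their spread is a description. The top 10% of cells held 46.1% of the thinned UMIs of the lower genes in control and 41.8% with coculture. For the higher genes these shares were 59.4% and 48.1%. Fetal and regenerative genes had medians of 4 and 2 UMIs and 90th percentiles of 74 and 12, and keratin and junction genes medians of 112.5 and 94 and 90th percentiles of 337 and 161. At the 10th percentile keratin and junction genes had 71 and 63 UMIs. Oxidative phosphorylation genes differed along the whole range, from 208 to 344 at the 10th percentile, 461.5 to 546.5 at the median and 608 to 704 at the 90th percentile. Annexin, S100 and galectin genes had medians of 102 and 102.5, with 90th percentiles of 280 and 157.

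**Figure D5:**
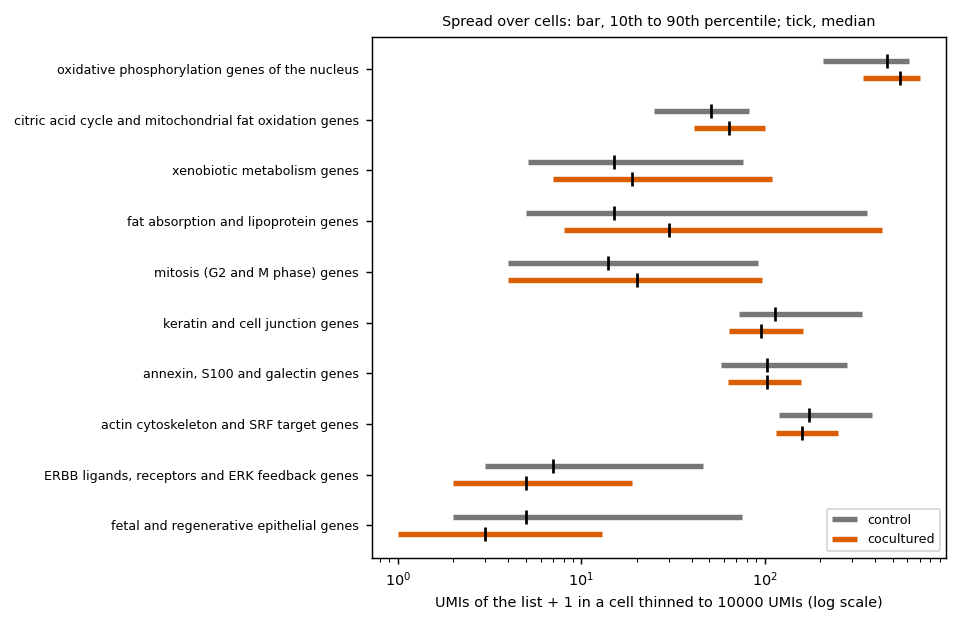
UMIs of 10 gene lists in cells thinned to 10000 UMIs, plus 1 and on a log scale, as bars from the 10th to the 90th percentile with the median as a tick, for 452 control cells (grey) and 928 cocultured cells (orange). Fetal and regenerative genes differ mainly at the upper end of the bar, at 74 and 12 UMIs, and oxidative phosphorylation genes along the whole bar.

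Most secretory and rare cell markers were not eligible. Of the 11 goblet, 13 Paneth and 20 enteroendocrine markers 8, 11 and 16 were held by few cells, and of the 13 tuft and 9 M cell markers 10 and 5 stayed under 2 CPM. Eligible were 2 goblet, 1 Paneth, 2 tuft and 3 M cell markers, of which Anxa5, on the M cell list, was past 2-fold lower. Goblet markers summed to 2457 and 2449 CPM, Paneth markers to 6357 and 7738 CPM, enteroendocrine markers to 176 and 893 CPM, tuft markers to 232 and 185 CPM and M cell markers to 201 and 97.4 CPM. Their part in the gene groups above was not tested.

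In the intestinal tissue of the same series, 37 of the 39 higher genes (94.9%) and 131 of the 168 lower genes (78.0%) reached 2 CPM in sorted small intestinal cells, against 97.3% of all eligible genes. In the first Visium section of small intestine, which holds the whole gut wall, the shares were 74.4% of the higher, 88.7% of the lower and 95.05% of all eligible genes, and in the second 74.4%, 89.3% and 94.7%. In the tissue cells the 39 higher genes had a median of 14.9 CPM and ranged from 0.355 CPM (4930455G09Rik) to 189 CPM (Anpep). The 168 lower genes had a median of 8.82 CPM and ranged from 0 for 2 genes to 799 CPM (Olfm4), with Krt18 at 637 CPM and Anxa10 at 0.0747 CPM. The tissue libraries were prepared and sorted differently from the organoids, so these are levels side by side and no ratio was formed.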

How the data were processed

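Droplet single-cell RNA libraries of control and cocultured small intestinal organoids were analysed, 1 library each. The authors deposited raw UMI counts per gene and barcode. They were made with Cell Ranger 6.0.1 per the submitters' processing notes, which name the mm10 build, and the annotation release was not given in the sources used here. The deposited matrices held 46236011 control and 100452728 cocultured UMIs. Barcodes stayed in at 500 or more genes and a mitochondrial share of 20% or less. Counts were scaled to CPM of the library sum and, as a second measure, of each cell, and no doublet was removed. A call required a log2 ratio of at least 1 in either direction by both measures. Counting intervals of ratios are exact conditional binomial (Clopper-Pearson) intervals at 95%. For log2 ratios a summed count under 3 was set to 3, or 0.0689 CPM in control and 0.0306 CPM in the cocultured library. The mean of per-cell CPM had the same floors. PCR duplicates were collapsed by the UMIs.

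Named genes were the 10 highest and 10 lowest by the weaker of both ratios, without unnamed models, and up to 4 members past 2-fold of each list. Others were named after their values were seen, and the values of some genes are not reported here. The members and gene lists were chosen with earlier results of these data known. Positions and promoter sequences come from RefSeq (GRCm38.p6), and 32158 of the 32285 gene IDs had an entry in the table of gene names used here. The small intestinal tissue cells, filtered alike, and the Visium spots, whose counts came from Space Ranger 1.2.1 per the submitters' processing notes, gave only reference levels, as CPM of deposited UMI counts. The computation was tested on simulated data. Python 3.11.15, NumPy 2.4.6, SciPy 1.17.1, pandas 2.3.3 and scanpy 1.11.5 (Scrublet, as an alternative) were used.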

Additional observations from a re-analysis of the deposited data

How the results depend on the processing

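No replicate or batch could be varied. No paired analysis was possible because each organoid condition had 1 library. The 39 higher genes became 69 with a stricter filter on cells (2000 or more genes, a mitochondrial share of 10% or less), 112 after thinning to 10000 UMIs, 108 with no minimum CPM, 73 without the top 5 cells of each gene, 86 by mean CPM alone and 161 at 1.5-fold. The 168 lower genes became 254 after thinning, 276 by mean CPM alone and 558 at 1.5-fold. With the other settings the counts lay between 30 and 56 and between 114 and 236. After thinning, 29 of the 39 and 116 of the 168 genes were called again, and with no filter on cells 30 and 131. The median log2 ratio of -0.094 became -0.059 after thinning, -0.079 without mitochondrial and ribosomal protein genes in the CPM, -0.035 without the top 5 cells, -0.047 by mean CPM and 0 by construction when centred. None of the 39 higher and 168 lower genes changed the sign of its summed log2 ratio in any of the 16 alternatives. Settings that changed only the rules for eligibility or for a call left this ratio the same by construction, so they could not reverse it. In contrast, 9 list medians near 0 changed sign in 1 to 7 of 15 alternatives. Under the stricter filter, xenobiotic genes had a median of 0.75 and brush border genes of 0.67. Lama3, Anxa10, Krt23, Il1rn, Lgr5 and Olfm4 were not called when 20 cells had to hold 50% of the UMIs, and Samd4 and Amotl1 were lost in 6 and 7 of 16 settings. Among scarce genes, Slc5a11, Ugt2b5, Ces1d and Fmo1 were not eligible at a minimum of 5 CPM, and Ugt2b5 and Fmo1 were not called after thinning to 10000 UMIs. The causes of these changes were not tested.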
